A study of Mus musculus with 36 samples.

Results

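The genes described are 9 genes of the complement system, *C1qa*, *C1qb*, *C1qc*, *C2*, *C3*, *C4b*, *Cfb*, *Serping1* and *C3ar1*. They were chosen by name and found in the table of normalized counts by the Ensembl ID that maps to each symbol, 1 row for each symbol, so that 9 of the 24750 genes in the table are described. The study asked how the fat content of the diet and adipose *Ccl19* bear on experimental periodontitis, and sequenced RNA of epididymal white adipose tissue (eWAT) from 36 male mice, 1 library per mouse. RNA was depleted of ribosomal RNA and made into directional libraries, and the lymph nodes had been taken out of the tissue before extraction. The mice formed 12 groups of 3, all of strain C57BL/6. The 2 genotypes were wild type (WT) and CCL19-KI (Adipoq-CCL19-KI in the labels), in which *Ccl19* was knocked into the *Adipoq* locus, a gene of adipocytes, and the WT mice were bred separately. Each genotype was given a normal diet (ND), a 40% high-fat diet (HFD) or a 60% HFD for 10 weeks. At 14 weeks of age, after 8 weeks of feeding, ligature-induced periodontitis (LIP) was started in 18 mice, and tissue was collected 2 weeks later. The labels name LIP for these 18 libraries and no ligature for the other 18, whereas the general description of the series speaks of ligation in all groups, and the labels of the single libraries were followed here. The libraries held 11962228 to 21581595 reads, with a median of 15573273, and 1 read stood for 0.0472 to 0.0834 normalized CPM (reads scaled to the size of the library), the unit of all levels given here. Markers of the labelled tissue were present in every library: *Adipoq* lay between 300.1 and 3937 normalized CPM, and *Fabp4*, the most abundant of the 10 adipocyte markers, between 2009 and 10912.

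Complement is a cascade of plasma proteins that marks particles and dying cells for uptake and draws in leukocytes. In the classical pathway, C1q binds antibodies or cell surfaces and C4 and C2 form the enzyme that cleaves C3, while in the alternative pathway factor B takes the place of C2, and the C1 inhibitor encoded by *Serping1* restrains the start. The liver makes most circulating complement, macrophages make C1q, and adipose tissue is known for factor D (adipsin) and for its own C3.

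All 9 genes lie on the minus strand in GRCm38 (GENCODE M21). The classical pathway members were *C1qa* (ENSMUSG00000036887) at 4:136895917-136898803, *C1qb* (ENSMUSG00000036905) at 4:136880129-136886187 and *C1qc* (ENSMUSG00000036896) at 4:136889804-136893065, 3 neighbours on chromosome 4, and *C4b* (ENSMUSG00000073418) at 17:34728380-34743882 and *C2* (ENSMUSG00000024371) at 17:34862604-34898265 on chromosome 17. The C3 and alternative pathway members were *C3* (ENSMUSG00000024164) at 17:57203970-57228136 and *Cfb* (ENSMUSG00000090231) at 17:34856374-34862518, the latter next to *C2*. The inhibitor was *Serping1* (ENSMUSG00000023224) at 2:84765387-84775444, and the receptor was *C3ar1* (ENSMUSG00000040552) at 6:122847138-122856161. Per kb of exon, the mean level over the 36 libraries was 895 normalized CPM per kb for *C3*, 253 for *Serping1*, 222 for *C4b*, 171 for *Cfb* and 152 for *C1qb*. Lower levels per kb were found for *C1qa* (103), *C1qc* (60.5), *C2* (53.5) and *C3ar1* (9.68). *C3* was thus the most abundant member per length and *C3ar1* the least, and none was at 0 in any library. The counts of *C4b* are uncertain to the extent that reads of its near-identical copy *C4a*, listed at 0.381 to 7.72 normalized CPM, could be split between them, and *C2* and *Cfb* adjoin each other on 1 strand. The plot of the 9 genes by group shows each library beside the mean and SD of its group.

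**Figure D1:**
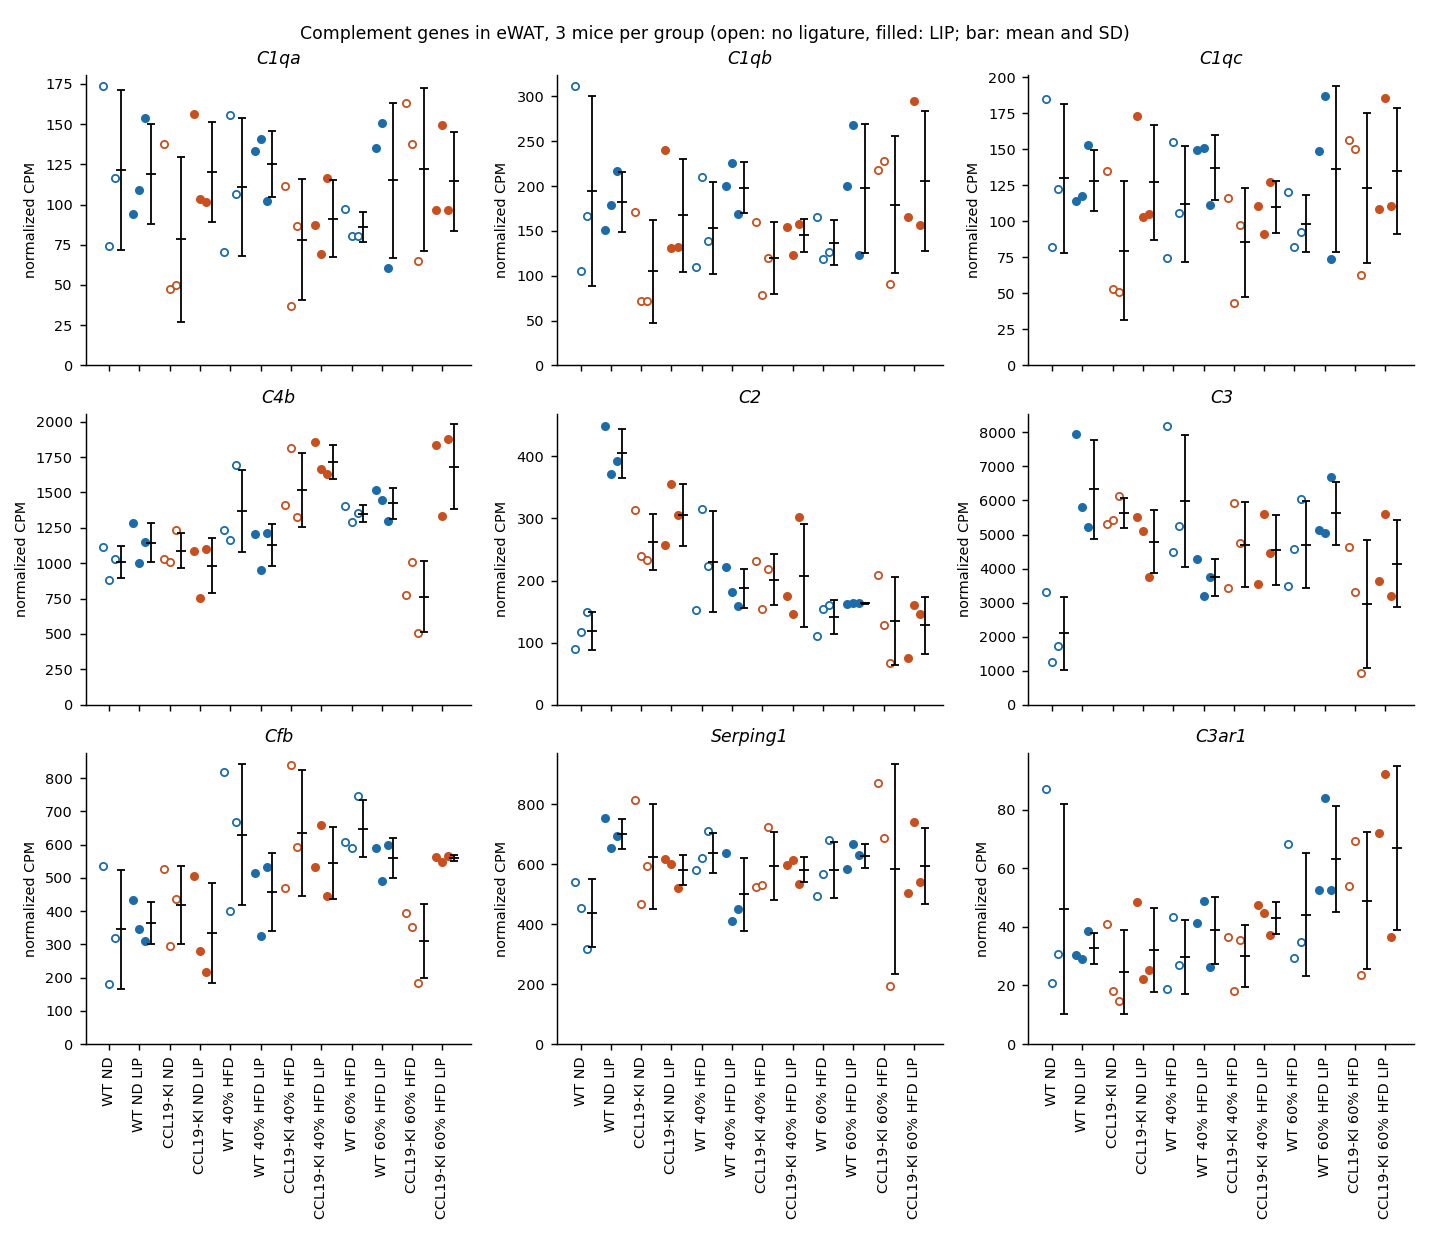
Normalized CPM of the 9 complement genes in each of the 36 libraries, by group, with the mean and SD of the 3 libraries of a group; open points are mice without ligature and filled points ligatured mice. *C2* and *C3* were lowest in WT mice on an ND without ligature, at mean levels of 119 and 2097, and *C4b* and *Cfb* were lowest in CCL19-KI mice on a 60% HFD without ligature, at 764 and 310.0.

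Some libraries stood apart by RNA of other tissues, which is given first because several results move with it. *Alb*, the hepatocyte gene for albumin, ranged from 5.55 to 13.4 normalized CPM in 6 libraries and from 267 to 26901 in the other 30, a gap of 19.9-fold with no library in it. The 6 low libraries were the 3 of WT mice on an ND without ligature, replicates 2 and 3 of ligatured CCL19-KI mice on an ND, and replicate 3 of CCL19-KI mice on a 60% HFD without ligature. Of the hepatocyte list, 16 of 16 genes were in the table, *Alb* was the most abundant and at 0 in no library. Summed over the 16 genes, the level on an ND was 21.2, 18.8 and 18.1 in WT mice (8576, 10358 and 1296 when ligatured) and 715, 30239 and 32542 in CCL19-KI mice (7523, 15.3 and 17.5 when ligatured). It was 38901, 9539.9 and 38102 in WT mice (8552, 543 and 26807 when ligatured) and 7232, 42239.9 and 25078 in CCL19-KI mice (9779, 45163 and 3113 when ligatured) on the 40% HFD. For the 60% HFD, the sums were 10422, 31777 and 44869 in WT mice (18075, 13582 and 41829 when ligatured) and 838, 1605 and 16.9 in CCL19-KI mice (23013, 20285 and 2532 when ligatured). Hepatocyte RNA was thus low in all WT mice on an ND without ligature, far higher in most mice on an HFD, and uneven within several groups. By limma, *Alb* differed by 3.53 on the log2 scale between 60% HFD and ND (SE 0.95, adjusted p = 0.0132), by 4.55 between 40% HFD and ND (adjusted p = 0.00676), by 8.73 between CCL19-KI and WT on an ND without ligature (adjusted p = 0.00619) and by −6.55 between them on a 60% HFD without ligature (adjusted p = 0.0230).

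A second set of markers, for epididymis, was uneven as well. All 10 genes of the list were in the table and 5 passed the filter on low values, and *Crisp1*, its defining and most abundant gene, was at 0 in 6 libraries. The sum of the 10 genes was 7717 in replicate 2 of WT mice on an ND, and 7142 and 10679 in replicates 2 and 3 of CCL19-KI mice on a 60% HFD, all without ligature. High sums were also found in replicate 2 of CCL19-KI mice on an ND (492), in replicates 1 and 2 of ligatured CCL19-KI mice on an ND (2621 and 1131) and in replicate 1 of CCL19-KI mice on a 60% HFD (352). Replicate 2 of WT mice on a 40% HFD had a sum of 1714 and replicate 1 of the ligatured ones 259.6, and in the rest it was at most 76.2, with a median of 1.41 over all 36. Replicate 3 of CCL19-KI mice on a 60% HFD, with the most epididymis RNA and hardly any hepatocyte RNA, also had the lowest *C2*, *C3*, *C4b* and *Serping1* and the lowest macrophage sum of the 36 libraries.

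*C1qa*, *C1qb* and *C1qc* encode the A, B and C chains of C1q, the recognition unit of the classical pathway. On an ND, *C1qb* had 311, 106 and 167 in WT mice (151, 179 and 217 when ligatured) and 171, 72.0 and 71.9 in CCL19-KI mice (239.9, 131 and 132 when ligatured). With the 40% HFD, *C1qb* had 110.3, 209.6 and 139 in WT mice (199.6, 226 and 169 when ligatured) and 160.0, 79.0 and 119.7 in CCL19-KI mice (154, 123 and 158 when ligatured). With the 60% HFD, *C1qb* had 165, 119 and 126 in WT mice (201, 268 and 123 when ligatured) and 218, 228 and 90.9 in CCL19-KI mice (166, 295 and 156 when ligatured). Replicate 1 of the WT mice on an ND was the highest of all, replicates 2 and 3 of the CCL19-KI mice on an ND were the lowest, and the ranges of the 3 diets overlapped throughout. *C1qa* ranged from 37.0 to 174 over the 36 libraries with a median of 103, and *C1qc* from 43.3 to 187 with a median of 113. In the order of group means, *C1qb* was highest in ligatured CCL19-KI mice on a 60% HFD (206 ± 77.7, SD, n = 3) and lowest in CCL19-KI mice on an ND (105 ± 57.2), a ratio of 1.96. The highest and lowest group means differed by a ratio of 1.60 for *C1qa* and 1.72 for *C1qc*. None of the 11 pairs of neighbours in the order of group means differed by more than the larger SD of the pair, for any of the 3 genes. The 3 chains moved together from mouse to mouse: over the 36 libraries, Pearson's r was 0.936 between *C1qa* and *C1qb*, 0.976 between *C1qa* and *C1qc* and 0.971 between *C1qb* and *C1qc*, with Spearman's rho of 0.938, 0.961 and 0.971. Each had a two-sided permutation p of 1e-05, the smallest that 100000 permutations can give, adjusted to 5.14e-05 for r and 6.00e-05 for rho over the 36 pairs of members, and without the 2 farthest libraries r was 0.926, 0.965 and 0.961. *C3ar1* followed them, with r of 0.823 and rho of 0.774 against *C1qb* (permutation p of 1e-05 for both, adjusted 5.14e-05 and 6.00e-05, r without the 2 farthest libraries 0.780). Against *C1qc* and *C1qa*, r was 0.768 and 0.669 and rho 0.742 and 0.636 (permutation p of 1e-05 for each r, adjusted 5.14e-05, and adjusted 6.00e-05 and 0.000257 for rho), and r without the 2 farthest libraries was 0.711 and 0.599.

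Because C1q chains and *C3ar1* moved together, the 150 bases before the start of those with a promoter entry are shown, from RefSeq on GRCm38.p6, minus strand, 5′ to 3′. Entries were found for 4 of the 9 members, *C1qb*, *C1qc*, *C3ar1* and *C3*, and for none of *C1qa*, *C2*, *C4b*, *Cfb* and *Serping1*. The windows are chr4:136886201-136886350 for *C1qb*, chr4:136892915-136893064 for *C1qc* and chr6:122856158-122856307 for *C3ar1*, and capitals mark a match to GAGGAA, the core bound by PU.1, a transcription factor of myeloid cells. Of 32851 promoter windows of the same length, 14.5% hold GAGGAA on either strand, and it was found in *C1qb* at 30 to 25 bases before the start. The pattern TTGCNNAA, C/EBP half-sites, held by 5.46% of windows, was found in *C3* alone, at 45 to 38 bases before its start. The interferon response element, GAAA followed after a pair of free bases by GAAA again, held by 1.59% of windows, and the TATA box TATAAA, held by 7.57%, were found in none of the 4. The starts are those of RefSeq, and as RefSeq starts *C1qc* farther downstream than GENCODE, its window lies inside the gene as placed above. Both strands were searched, no match overlapped another, and a match describes the letters only.
C1qb: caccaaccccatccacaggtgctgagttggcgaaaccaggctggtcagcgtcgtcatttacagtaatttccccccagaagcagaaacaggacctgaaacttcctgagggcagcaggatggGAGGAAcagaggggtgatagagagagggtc
C1qc: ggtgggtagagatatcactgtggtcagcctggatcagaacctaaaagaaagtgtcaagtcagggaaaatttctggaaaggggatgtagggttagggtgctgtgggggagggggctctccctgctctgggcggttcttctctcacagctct
C3ar1: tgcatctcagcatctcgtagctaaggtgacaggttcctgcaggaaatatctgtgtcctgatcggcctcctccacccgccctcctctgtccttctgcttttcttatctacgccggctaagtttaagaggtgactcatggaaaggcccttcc

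*C4b* encodes C4, which C1s cleaves and which binds covalently to targets. On an ND, *C4b* had 1114, 884 and 1027 in WT mice (1282, 1003 and 1151 when ligatured) and 1028, 1007 and 1231 in CCL19-KI mice (1087, 757 and 1099.8 when ligatured). With the 40% HFD, *C4b* had 1238, 1163 and 1697 in WT mice (1209.7, 955 and 1216 when ligatured) and 1409, 1812 and 1329.8 in CCL19-KI mice (1854, 1666 and 1627 when ligatured). With the 60% HFD, *C4b* had 1405, 1288 and 1357 in WT mice (1519, 1446 and 1299 when ligatured) and 776, 1008 and 509 in CCL19-KI mice (1834, 1337 and 1875 when ligatured). All CCL19-KI libraries of the 40% HFD, ligatured or not, and all libraries of the 60% HFD other than those of CCL19-KI mice without ligature lay above the highest ND library. The CCL19-KI mice on a 60% HFD without ligature lay below all other libraries of that diet. Group means ran from 1716 ± 121 (SD, n = 3) in ligatured CCL19-KI mice on a 40% HFD to 764 ± 249.8 in CCL19-KI mice on a 60% HFD without ligature, a ratio of 2.25, and 1 of the 11 pairs of neighbours in that order differed by more than the larger SD.

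*C2* encodes C2, the protease of the classical pathway enzyme that cleaves C3. On an ND, *C2* had 89.9, 117 and 150.1 in WT mice (449, 372 and 393 when ligatured) and 314, 239 and 234 in CCL19-KI mice (257, 356 and 306 when ligatured). With the 40% HFD, *C2* had 153, 315 and 224 in WT mice (221, 182 and 159 when ligatured) and 231, 155 and 218 in CCL19-KI mice (175, 146 and 302 when ligatured). The 60% HFD gave *C2* levels of 110.0, 154 and 160.4 in WT mice (162, 163 and 164 when ligatured) and 209, 128 and 67.7 in CCL19-KI mice (76.0, 161 and 146 when ligatured). On an ND, the WT mice without ligature lay below all other mice, with no overlap. On the 60% HFD, the ligatured WT mice lay above the WT mice without ligature and above the ligatured CCL19-KI mice. The other pairs of groups on the 60% HFD overlapped. Group means ran from 405 ± 39.9 (SD, n = 3) in ligatured WT mice on an ND to 119 ± 30.2 in WT mice on an ND without ligature, a ratio of 3.41. Only the step from the first to the second group in that order was larger than the larger SD, 1 of 11.

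*C3* encodes C3, on which all pathways converge. On an ND, *C3* had 3299, 1254 and 1737 in WT mice (7968, 5798 and 5216 when ligatured) and 5322, 5435 and 6133 in CCL19-KI mice (5511, 5111 and 3755 when ligatured). With the 40% HFD, *C3* had 8181, 4501 and 5257 in WT mice (4289.9, 3201 and 3743 when ligatured) and 3431, 5915 and 4755 in CCL19-KI mice (3559, 5603 and 4463 when ligatured). On the 60% HFD, *C3* had 3476, 4588 and 6031 in WT mice (5139, 5049.8 and 6682 when ligatured) and 4647, 3313 and 924 in CCL19-KI mice (3627, 5607 and 3209 when ligatured). On an ND, the WT mice without ligature again lay below all other mice, and the lowest of all libraries was replicate 3 of the CCL19-KI mice on a 60% HFD. Group means ran from 6327 ± 1450.1 (SD, n = 3) in ligatured WT mice on an ND to 2097 ± 1069 in WT mice on an ND without ligature, a ratio of 3.02, and none of the 11 pairs of neighbours differed by more than the larger SD.

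*Cfb* encodes factor B, the protease of the alternative pathway. On an ND, *Cfb* had 535, 181 and 319.5 in WT mice (434, 346 and 311 when ligatured) and 527, 295 and 437 in CCL19-KI mice (504, 280.0 and 216 when ligatured). With the 40% HFD, *Cfb* had 819, 401 and 668 in WT mice (514, 324 and 534 when ligatured) and 470.0, 840.0 and 593 in CCL19-KI mice (531, 658 and 445 when ligatured). The 60% HFD gave *Cfb* levels of 607, 589 and 746 in WT mice (591, 491 and 598 when ligatured) and 395, 352 and 183 in CCL19-KI mice (563, 549 and 565 when ligatured). Most libraries of the HFD groups lay above most of the ND libraries, the ranges of the diets overlapped, and the CCL19-KI mice on a 60% HFD without ligature lay below all other mice of that diet. Group means ran from 647 ± 85.7 (SD, n = 3) in WT mice on a 60% HFD without ligature to 310.0 ± 112 in CCL19-KI mice on a 60% HFD without ligature, a ratio of 2.09, with none of the 11 neighbouring pairs apart by more than the larger SD. Over the 36 libraries *Cfb* moved with *C4b*, with r of 0.739 and rho of 0.747 (permutation p of 1e-05 for both, adjusted 5.14e-05 and 6.00e-05), and r without the 2 farthest libraries was 0.648.

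*Serping1* encodes the C1 inhibitor, which inactivates C1r and C1s. It ranged from 194 in replicate 3 of the CCL19-KI mice on a 60% HFD to 870.1 in replicate 1 of the same group, with a median of 595 over the 36 libraries. That group thus held both extremes. Group means ran from 701 ± 50.1 (SD, n = 3) in ligatured WT mice on an ND to 438 ± 114 in WT mice on an ND without ligature, and no neighbours in the order differed by more than the larger SD (0 of 11). *Serping1* moved with *C3*, with r of 0.767 (permutation p = 2.00e-05, adjusted 9.00e-05) and rho of 0.563 (p = 0.000530, adjusted 0.00238), and r was 0.629 without the 2 farthest libraries.

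*C3ar1* encodes the receptor for C3a, the small fragment released when C3 is cleaved, and is known from myeloid cells. On an ND, *C3ar1* had 86.9, 20.7 and 30.6 in WT mice (30.4, 28.9 and 38.7 when ligatured) and 40.9, 18.1 and 14.8 in CCL19-KI mice (48.4, 22.3 and 25.4 when ligatured). With the 40% HFD, *C3ar1* had 18.6, 43.4 and 27.1 in WT mice (41.2, 48.8 and 26.4 when ligatured) and 36.6, 18.0 and 35.4 in CCL19-KI mice (47.5, 44.8 and 37.1 when ligatured). With the 60% HFD, *C3ar1* had 68.1, 29.5 and 34.7 in WT mice (52.7, 84.1 and 52.5 when ligatured) and 54.0, 69.2 and 23.5 in CCL19-KI mice (72.1, 92.0 and 36.6 when ligatured). Replicate 1 of the WT mice on an ND stood far above the rest of its diet, and otherwise the high values were those of the 60% HFD, with overlap between diets. Group means ran from 66.9 ± 28.1 (SD, n = 3) in ligatured CCL19-KI mice on a 60% HFD to 24.6 ± 14.2 in CCL19-KI mice on an ND without ligature, a ratio of 2.72, and 0 of 11 neighbours in the order were apart by more than the larger SD.

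The first comparison asked how diet bears on the 9 genes, with the mean of the 4 combinations of genotype and ligature on each side and 12 mice per diet. On the 60% HFD, *C2* was lower and *C3ar1* higher than on an ND. *Cfb* was higher as well, and passed limma's test but not edgeR's. The median of *C2* was 281 (89.9 to 449) on an ND and 157 (67.7 to 209) on the 60% HFD, lowest and highest library in brackets, and all 12 libraries of the 60% HFD lay below the ND median. *C3ar1* had a median of 29.7 (14.8 to 86.9) on an ND and 53.3 (23.5 to 92.0) on the 60% HFD, with 10 of 12 libraries above the ND median, and *Cfb* one of 333 (181 to 535) on an ND and 564 (183 to 746) on the 60% HFD, with 11 of 12 above it. The ranges of both diets overlapped for each of the 3 genes. In limma's fit of all 17852 genes that passed the filter, 3 of the 9 members passed an adjusted p below 0.05 (two-sided, Benjamini-Hochberg over all genes tested), against 18.6% of all genes. *C2* fell by 0.86 on the log2 scale (SE 0.16, 95% interval −1.20 to −0.52, limma adjusted p = 0.00127), and it was lower in 3 of 4 pairs of groups, the WT mice without ligature being the other. *C3ar1* rose by 0.75 (SE 0.24, limma adjusted p = 0.0311, 4 of 4 pairs by log2 means, with a ratio of linear means of 0.958 in WT mice without ligature) and *Cfb* by 0.51 (SE 0.18, limma adjusted p = 0.0445, 3 of 4 pairs). *C4b* differed by 0.24 (SE 0.10) and did not pass (limma adjusted p = 0.102), and the other 5 differed by −0.089 to 0.19. The median log2 difference was 0.10 over the 9 members and 0.014 over all genes tested. Taken pair by pair, *C2* did not overlap between the diets in ligatured WT mice (ratio of means 0.403), CCL19-KI mice (0.515) and ligatured CCL19-KI mice (0.417), each with a two-sided exact permutation p of 0.1, the smallest possible. *C3* did not overlap either in the mice without ligature, with a ratio of 2.24 in WT and 0.526 in CCL19-KI mice (exact permutation p of 0.1 each), opposite in direction. In WT, ligatured WT and ligatured CCL19-KI mice, the 60% HFD lay above ND without overlap for *Cfb* (ratios 1.87, 1.54 and 1.67) and *C4b* (1.34, 1.24 and 1.71), as it did for *C3ar1* in ligatured WT mice (1.93, exact permutation p of 0.1 each). How many of all genes did not overlap in these pairs was not counted. The edgeR quasi-likelihood test on recovered reads called *C2* and *C3ar1* but not *Cfb* (0.45, edgeR adjusted p = 0.0635).

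Beside these calls, hepatocyte and macrophage markers moved with the diet. On the 60% HFD, 15 of 16 hepatocyte genes rose by limma's adjusted p and 11 of 16 by edgeR's. With log2 *Alb* as a covariate, limma gave −0.81 for *C2* (adjusted p = 0.0135), 0.69 for *C3ar1* (adjusted p = 0.152) and 0.15 for *Cfb* (adjusted p = 0.686), so that only *C2* still passed, with 1696 of 17852 genes called in that fit. Over all alternatives the limma or edgeR adjusted p ran from 2.17e-06 to 0.861 for *C2*, 3.67e-05 to 0.900 for *C3ar1* and 0.000473 to 0.991 for *Cfb*. In the 18 libraries with *Alb* below the median of the 36, with an additive model, the difference of *C2* was −0.93 and that of *C3ar1* 0.33, while *Cfb* turned to −0.022 and *C4b* to −0.092, and no member passed by limma (adjusted p of *C2* 0.861), with 0 of 17271 genes called in that fit. Of 12 macrophage markers, 2 rose (*Cd68* by 1.12 and *Adgre1*, the gene of F4/80, by 0.79, limma adjusted p = 0.00341 and 0.0200) and 2 fell (*Cd163* by 0.71 and *Mertk* by 0.40, adjusted p = 0.0298 and 0.0144). Of the 9 lipid-associated macrophage markers outside the complement lists, 7 rose, among them *Trem2* by 1.17 (limma adjusted p = 0.0253). Of 8 mesothelial markers 2 fell, *Wt1* by 0.81 and *Upk1b* by 0.80 (limma adjusted p = 0.0136 and 0.0448). The lipid-associated macrophage list, with 10 genes in the table of which *Lpl*, known also from adipocytes, was the most abundant (a mean of 5599 beside a median sum of 5886) and *Trem2*, the defining gene, at 0 in no library, had a sum on an ND of 8929, 4837 and 10198 in WT mice (5756, 4658 and 5548 when ligatured) and 6431, 2004 and 2324 in CCL19-KI mice (3034, 3051 and 3492 when ligatured). That sum on the 60% HFD was 10806, 6205 and 6017 in WT mice (7300.3, 5721 and 6271 when ligatured) and 4144, 5310.5 and 6194 in CCL19-KI mice (10644, 6717 and 12205 when ligatured), higher in most mice with overlap. Of further lists, 6 of 10 kidney tubule genes, 3 of 8 endothelial genes and 2 of 4 neutrophil genes rose and 2 of 8 skeletal muscle genes fell by limma. The part of these markers in the results was not tested further, and in bulk tissue fewer cells of a type and less RNA per cell cannot be told apart.

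*C2* passed limma's test without each of the 24 libraries in turn, with an adjusted p of at most 0.00349. *C3ar1* passed in 13 of 24 such fits and was lost, with limma's adjusted p in brackets, without WT ND 2 (0.0658), WT ND 3 (0.0506), CCL19-KI ND 2 (0.0539), CCL19-KI ND 3 (0.0555), CCL19-KI ND LIP 2 (0.0603), CCL19-KI ND LIP 3 (0.0545), WT 60% HFD 1 (0.0616), WT 60% HFD LIP 2 (0.0566), CCL19-KI 60% HFD 2 (0.0558), CCL19-KI 60% HFD LIP 1 (0.0543) and CCL19-KI 60% HFD LIP 2 (0.0578), group and replicate number being given for each library. *Cfb* passed in 5 of 24, without WT ND 1, WT ND LIP 1, CCL19-KI ND 1, CCL19-KI ND LIP 1 and CCL19-KI 60% HFD 3, and leaving out any of the other 19 gave a limma adjusted p of 0.0503 to 0.0922. Without replicate 3 of CCL19-KI mice on a 60% HFD, *C4b* passed as well (0.31, limma adjusted p = 0.0269, range over the alternatives 0.000899 to 0.968). Without the 3 libraries with most epididymis RNA, *C2* (−0.67) and *Cfb* (0.51) passed limma's test and *C3ar1* did not (0.71, adjusted p = 0.0605). Without the WT mice on an ND and not ligatured, in an additive model, *C2* was −1.25 and *C3ar1* 0.95 by limma and both passed, while *Cfb* did not (0.42, adjusted p = 0.135). *Cfb* was also lost by limma with no filter (adjusted p = 0.0562), an additive model (0.0837) and quantile normalization (0.113), and *C3ar1* with the last (0.0591).

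On the 40% HFD, *C4b* and *Cfb* were higher than on an ND, and neither *C3ar1* nor the C1q chains passed the test. The median of *C4b* was 1058 (757 to 1282) on an ND and 1369 (955 to 1854) on the 40% HFD, and that of *Cfb* was 333 (181 to 535) on an ND and 533 (324 to 840.0) on the 40% HFD. For each gene, 11 of 12 libraries of the 40% HFD lay above the ND median, and the ranges overlapped. By limma 2 of 9 members passed, against 9.21% of all genes tested, and edgeR called the same 2. *C4b* rose by 0.42 on the log2 scale (SE 0.10, 95% interval 0.21 to 0.64, limma adjusted p = 0.0152), higher in 3 of 4 pairs of groups, and *Cfb* by 0.66 (SE 0.18, 95% interval 0.30 to 1.01, limma adjusted p = 0.0219), higher in 4 of 4. *C2* differed by −0.30 (SE 0.16, limma adjusted p = 0.243), and the median over the 9 members was 0.0030, beside −0.016 for all genes tested. *C4b* lay higher on the 40% HFD without overlap in WT (a ratio of 1.35), CCL19-KI (1.39) and ligatured CCL19-KI mice (1.75, exact permutation p of 0.1 each). *C2* did not overlap between the diets in 3 pairs of groups, with a ratio of 1.94 in WT, 0.463 in ligatured WT and 0.767 in CCL19-KI mice, and in the WT and the ligatured WT mice neither did *C3* (2.85 and 0.592) and *Serping1* (1.46 and 0.712), each with an exact permutation p of 0.1. How many of all genes did not overlap in these pairs was not counted. On this diet 15 of 16 hepatocyte genes rose by limma and 16 by edgeR, and with log2 *Alb* as a covariate *C4b* was 0.21 and *Cfb* 0.19, neither passing (limma adjusted p = 0.480 and 0.748, ranges over all alternatives 0.000492 to 0.966 and 0.000537 to 0.971), with 236 of 17852 genes called in that fit. *C4b* passed without each of the 24 libraries in turn, and *Cfb* in 23 of 24, being lost without replicate 2 of CCL19-KI mice on a 40% HFD (0.60, limma adjusted p = 0.0501). Besides, 3 of 8 endothelial genes, of which *Kdr* was the most abundant, rose and 6 of 8 skeletal muscle genes, of which *Acta1* was, fell by limma on the 40% HFD, and of 12 macrophage genes 0 passed (0 at an unadjusted p below 0.05, 0 by edgeR). An additive model called 0 of 9 (limma adjusted p of *C4b* 0.110 and of *Cfb* 0.0731), as did quantile normalization (0.267 and 0.0648).

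Between the high-fat diets, *C2* had a lower and *C3ar1* a higher median on the 60% HFD, and neither passed the test. The median of *C2* was 200.0 (146 to 315) on the 40% HFD and 157 (67.7 to 209) on the 60% HFD, and that of *C3ar1* 36.8 (18.0 to 48.8) on the 40% HFD and 53.3 (23.5 to 92.0) on the 60% HFD, with overlapping ranges. By limma 0 of 9 members passed, against 0.745% of all genes, with 2 at an unadjusted p below 0.05, beside 2356 of all 17852 genes, and edgeR called 0. *C2* differed by −0.56 (SE 0.16, 95% interval −0.90 to −0.22, limma adjusted p = 0.0972), with 11 of 12 libraries below the 40% median, and *C3ar1* by 0.60 (SE 0.24, limma adjusted p = 0.260). Without replicate 1 of CCL19-KI mice on a 60% HFD, *C2* passed (−0.66, limma adjusted p = 0.0335, range over the alternatives 0.0216 to 0.743). The plot of the averaged comparisons sets the 9 estimates of each diet beside those of the ligature.

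**Figure D2:**
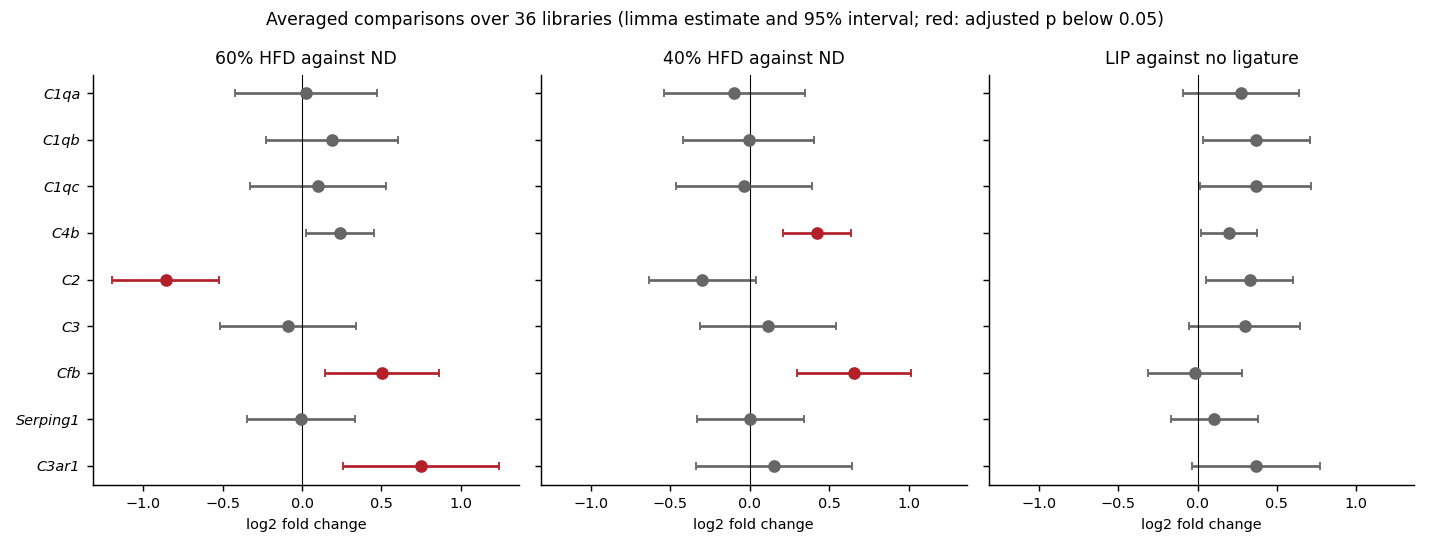
Log2 difference of the 9 complement genes with its 95% interval by limma, averaged over the other factors, for the 60% HFD against ND, the 40% HFD against ND and LIP against no ligature; red marks an adjusted p below 0.05. *C2* at −0.86 lies farthest from 0 in the first panel and *Cfb* at 0.66 in the second.

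The second comparison asked how periodontitis bears on these genes in a distant fat depot, over the 6 combinations of diet and genotype, 18 mice against 18. *C1qb* and *C1qc* had a higher log2 mean with a ligature in 6 of 6 pairs of groups, though in WT mice on an ND the ratio of means was 0.937 and 0.989 on the linear scale, and 8 of the 9 genes had an estimate above 0, *Cfb* being the exception. The median of *C1qb* was 133 (71.9 to 311) without and 168 (123 to 295) with a ligature, and that of *C1qc* 102 (43.3 to 185) and 116 (73.7 to 187). The ranges overlapped, and 14 of 18 ligatured libraries for *C1qb* and 16 of 18 for *C1qc* lay above the median without ligature. By limma 0 of 9 members passed, against 0.325% of all genes tested, with 4 at an unadjusted p below 0.05, beside 2885 of all 17852 genes, and edgeR called 0. The 4 were *C2* (0.33, SE 0.13, limma adjusted p = 0.230), *C1qb* (0.37, SE 0.16, 0.268), *C1qc* (0.37, SE 0.17, 0.287) and *C4b* (0.20, SE 0.086, 0.257). *C2* had a higher log2 mean with a ligature in 3 of 6 pairs of groups and *C4b* in 4 of 6. The smallest estimates over the alternatives were 0.069 for *C2*, in an additive model without the WT mice on an ND and not ligatured, and 0.0069 for *C1qb* and 0.038 for *C1qc*, in an additive model of the libraries with *Alb* below the median (limma or edgeR adjusted p over all alternatives 0.0980 to 0.865, 0.0638 to 0.996 and 0.0871 to 0.974). The median over the members was 0.30, beside −0.022 for all genes. Of 12 macrophage markers none passed limma's test for the ligature (0 called, 8 at an unadjusted p below 0.05, 1 by edgeR), and of 16 hepatocyte markers likewise none (0 by limma, 0 at an unadjusted p below 0.05, 0 by edgeR).

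Within single pairs of groups, the ligature went with non-overlapping levels in a few. In WT mice on an ND, all 3 ligatured mice lay above all 3 without ligature for *C2* (405 ± 39.9 against 119 ± 30.2, SD, n = 3, a ratio of 3.41), *C3* (a ratio of 3.02) and *Serping1* (a ratio of 1.60). In CCL19-KI mice on a 60% HFD, the ligatured mice lay above the others for *C4b* (1682 ± 299 against 764 ± 249.8, a ratio of 2.20) and *Cfb* (559 ± 8.70 against 310.0 ± 112, a ratio of 1.80). Smaller shifts without overlap were found for *C2* in WT mice on a 60% HFD (ratio 1.15) and *C3ar1* in CCL19-KI mice on a 40% HFD (ratio 1.44), and *C3* lay lower with a ligature in WT mice on a 40% HFD (ratio 0.626). Each of these had a two-sided exact permutation p of 0.1, the smallest that 3 mice against 3 can give, so that this test cannot reach 0.05 for 1 pair. Exchangeable values of 3 mice against 3 separate at this same rate of 0.1. The share of all genes without overlap was not counted, so these cases are not shown to be particular to complement genes. In the WT mice on an ND and the CCL19-KI mice on a 60% HFD, the group without ligature held libraries with little hepatocyte RNA: the summed hepatocyte markers were 21.2, 18.8 and 18.1 in WT mice on an ND and 8576, 10358 and 1296 with a ligature, and 838, 1605 and 16.9 and 23013, 20285 and 2532 in the CCL19-KI mice on a 60% HFD. The mesothelial sum in the WT mice on an ND was 491, 582 and 574, and 1476, 1410.1 and 1247 with a ligature, and the epididymis sum 4.62, 7717 and 76.2, and 0.896, 0.557 and 3.25 with one. For the knock-in on a 60% HFD, the epididymis sum was 352, 7142 and 10679 without and 1.86, 1.22 and 0.894 with a ligature, and the adipocyte sum 10104, 12478 and 13188 and 20298, 13654 and 23480.3. The part of these markers in the differences was not tested.

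The third comparison asked how adipose *Ccl19* bears on the genes, CCL19-KI against WT at each diet and ligature status. Without ligature, *C3* and *C2* were higher in CCL19-KI mice on an ND, and *C4b* and *Cfb* were lower in them on a 60% HFD, in each case with no overlap of the 3 mice on either side. How many of all genes did not overlap there was not counted. On an ND the means were 5630.0 ± 439 against 2097 ± 1069 for *C3* and 262 ± 44.7 against 119 ± 30.2 for *C2* (SD, n = 3). On a 60% HFD they were 764 ± 249.8 against 1349.9 ± 58.6 for *C4b* and 310.0 ± 112 against 647 ± 85.7 for *Cfb*. On an ND, 2 of 9 members passed by limma, against 16.6% of all genes, namely *C3*, up by 1.54 on the log2 scale (SE 0.42, 95% interval 0.68 to 2.40, limma adjusted p = 0.0165), and *C2*, up by 1.15 (SE 0.33, 95% interval 0.48 to 1.82, limma adjusted p = 0.0200). *C1qb* differed by −0.87 (SE 0.40, limma adjusted p = 0.132) and did not pass. On a 60% HFD, 2 of 9 passed, against 16.8% of all genes: *C4b* fell by 0.87 (SE 0.21, 95% interval −1.31 to −0.44, limma adjusted p = 0.0102) and *Cfb* by 1.13 (SE 0.35, 95% interval −1.85 to −0.41, limma adjusted p = 0.0297), while *C3* differed by −0.92 (limma adjusted p = 0.129). The edgeR test called the same 2 genes on each of these diets. The study itself called genes by edgeR, with an unadjusted p up to 0.05 and a ratio of 1.5 or more, or 0.67 or less, and with these cut-offs put on limma's values 3 of 9 members passed on an ND (*C3*, *C2* and *C1qb*), against 23.3% of all genes, and 3 on a 60% HFD (*C4b*, *Cfb* and *C3*), against 23.4%. Put on edgeR's values, the same cut-offs called 4953 and 4914 of the 17852 genes.

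Hepatocyte, epididymis, kidney tubule and mesothelial markers moved with the same groups. By limma 16 of 16 hepatocyte genes rose on an ND and 16 of 16 fell on a 60% HFD, in CCL19-KI against WT mice without ligature, and edgeR called 16 and 7 of them. On the 60% HFD 4 of the 5 epididymis genes tested rose, *Crisp1* by 9.66 (limma adjusted p = 0.0139). Of 10 adipocyte markers, 6 fell on an ND and 1 on a 60% HFD, and of 10 kidney tubule markers, of which *Lrp2* was the most abundant, 6 fell on a 60% HFD by limma (edgeR 6, of which 1 up) and on an ND 0 passed by limma (2 at an unadjusted p below 0.05) and 3 rose by edgeR. Without ligature, the adipocyte sum on an ND was 18319, 8281 and 6698 in the knock-in against 24785, 15693 and 28036 in WT mice, and the kidney tubule sum on a 60% HFD was 155, 70.7 and 96.9 against 251, 294 and 238. On an ND, the kidney tubule sum was 311, 146 and 153 against 97.7, 67.0 and 66.6 and the mesothelial sum 2053, 838 and 831 against 491, 582 and 574, both without overlap, and 1 of 8 mesothelial markers rose by limma and 1 by edgeR. With log2 *Alb* as a covariate, limma gave 0.54 for *C3* and 1.28 for *C2* on an ND (adjusted p = 0.587 and 0.130, ranges over all alternatives 3.40e-05 to 0.587 and 0.00720 to 0.130). For the 60% HFD it gave −0.57 for *C4b* and −0.46 for *Cfb* (adjusted p = 0.184 and 0.525, ranges 0.00149 to 0.366 and 0.0244 to 0.525), so that no member passed, with 92 and 45 of 17852 genes called in these fits. Without the 3 libraries with most epididymis RNA, which leaves 1 CCL19-KI mouse on a 60% HFD without ligature, *C4b* passed limma's test at −0.80, *Cfb* did not (−0.70, adjusted p = 0.267), and *C3* turned to 0.020. That lone mouse is assumed to vary like the mice of the other groups.

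Several of these calls were lost or gained without a single library. *C3* on an ND was lost without WT ND 2 or 3 (limma adjusted p = 0.0642 and 0.0578) and without CCL19-KI ND 2 or 3 (0.0784 and 0.0779). *C2* was lost without WT ND 1 (0.0836 by limma) and without CCL19-KI ND 2 or 3 (0.0813 and 0.0665). Without CCL19-KI ND 1, 5 members passed limma's test, *C3*, *C2* and the 3 C1q chains, beside 4829 of 17830 genes. *C1qb* passed there (−1.28, limma adjusted p = 0.0252, range over the alternatives 0.000675 to 0.482) and without WT ND 2 (−1.24, limma adjusted p = 0.0499). It also passed without the 3 libraries with most epididymis RNA (−1.24, limma adjusted p = 0.0330). On the 60% HFD, *C4b* passed limma's test without each of the 6 libraries in turn, with an adjusted p of at most 0.0470. It was lost with quantile normalization (−0.31, limma adjusted p = 0.366), which also ended the call of *Cfb* (−0.69, 0.126), and with sample quality weights (−0.55, 0.0549), whose estimation did not reach its tolerance. Fitted to the 18 libraries without ligature alone, all 4 calls were lost by limma (adjusted p = 0.0820 for *C3*, 0.0620 for *C2*, 0.0579 for *C4b* and 0.106 for *Cfb*). Their estimates there were the same as in the main fit (1.54, 1.15, −0.87 and −1.13). *Cfb* was lost without WT 60% HFD 1, 2 or 3 (limma adjusted p = 0.0524, 0.0684 and 0.115) and without CCL19-KI 60% HFD 3 (0.135), and *C3* passed without CCL19-KI 60% HFD 1 (−1.39, 0.0397, range over the alternatives 0.0397 to 0.981).

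In the other comparisons of genotype no member passed limma's test, and edgeR called 0 of 9 in each of them. On a 40% HFD without ligature, 0 of 9 passed by limma (0 at an unadjusted p below 0.05), against 0.00560% of all genes. With a ligature, limma called 0 of 9 on an ND (0 at an unadjusted p below 0.05, 1.03% of all genes), 0 on a 40% HFD (1 at an unadjusted p below 0.05, 0.0112% of all genes) and 0 on a 60% HFD (0 at an unadjusted p below 0.05, 0.0112% of all genes). With the cut-offs of the study put on limma's values, 0 of 9 passed on a 40% HFD without ligature (2.70% of all genes), and with a ligature 0 on an ND (8.44%), 1 on a 40% HFD (1.25%) and 0 on a 60% HFD (1.41%). The single gene was *C4b*, at 1716 ± 121 in CCL19-KI against 1127 ± 149 in WT mice without overlap (0.61, SE 0.21, limma adjusted p = 1, two-sided exact permutation p = 0.1). Further ligatured pairs without overlap, none of which passed limma's test, ran lower in CCL19-KI mice: *C2* on an ND (ratio of means 0.756) and on a 60% HFD (0.783), *Serping1* on an ND (0.828) and *C1qb* on a 40% HFD (0.731), each at an exact permutation p of 0.1. How many of all genes did not overlap in the ligatured pairs was not counted. Averaged over all diets and both ligature states, 0 of 9 members passed by limma (0 at an unadjusted p below 0.05, 0 by edgeR), against 0.459% of all genes, and the 9 estimates lay between −0.25 and 0.011. The plot of genotype by diet and ligature shows the 4 genes that passed in a comparison.

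**Figure D3:**
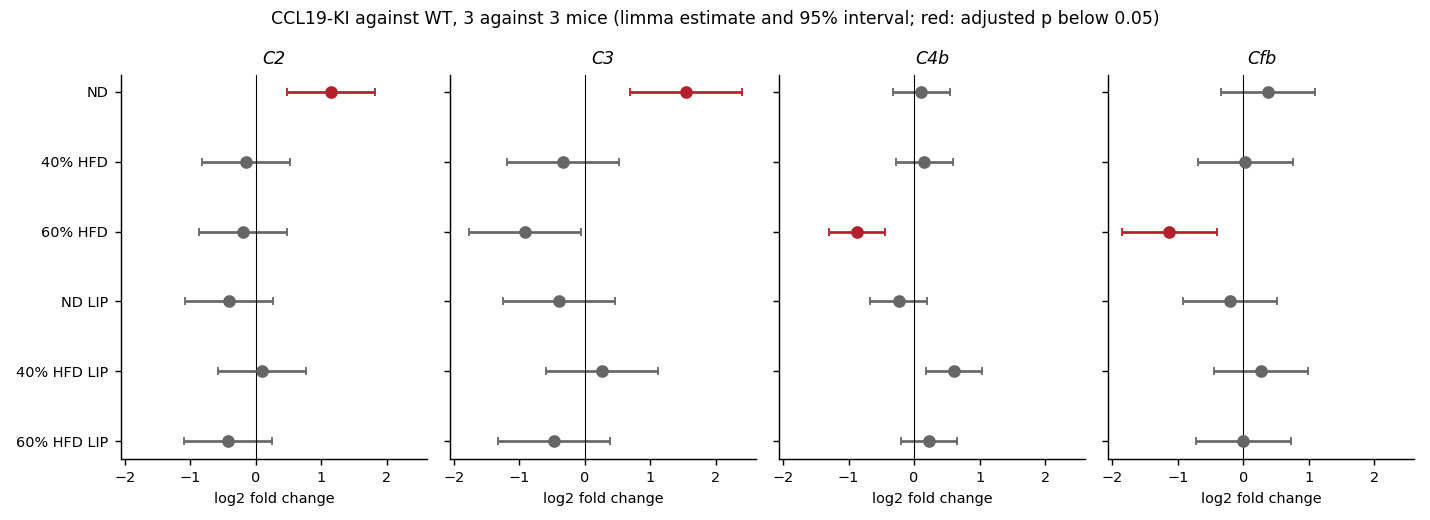
Log2 difference between CCL19-KI and WT mice with its 95% interval by limma for *C2*, *C3*, *C4b* and *Cfb* at each diet and ligature status, 3 mice against 3. *C3* at 1.54 and *C2* at 1.15 on an ND, and *C4b* at −0.87 and *Cfb* at −1.13 on a 60% HFD, all without ligature, had an adjusted p below 0.05.

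Because effects passed the test in some groups and not in others, the differences between effects were tested themselves, in 5 contrasts. No member passed in any of them, by limma or by edgeR. The genotype effect on the 60% HFD minus that on an ND, both averaged over ligature, was −1.27 for *C3* (SE 0.42, limma adjusted p = 0.0938), −0.68 for *C2* (0.221), −0.65 for *Cfb* (0.271) and −0.26 for *C4b* (0.473), with 0 of 9 passing by limma, 2 at an unadjusted p below 0.05 and 0 by edgeR, against 0.476% of all genes. Without replicate 1 of the CCL19-KI mice on a 60% HFD, 1 member passed there, *C3*. For the 40% HFD minus ND, 0 of 9 passed by limma (1 at an unadjusted p below 0.05, 0 by edgeR, 0% of all genes), and *C4b* had 0.45 (limma adjusted p = 0.425). For the genotype effect with minus without ligature, 0 of 9 passed by limma (1 at an unadjusted p below 0.05, 0 by edgeR, 0.00560% of all genes), with *C4b* at 0.40 (limma adjusted p = 0.416). The effect of the 60% HFD with minus without ligature was −0.90 for *C2* (limma adjusted p = 0.220) and 0.62 for *C4b* (0.197), 0 of 9 passing by limma (2 at an unadjusted p below 0.05, 0 by edgeR, 0% of all genes). That of the 40% HFD was −1.13 for *C2* (limma adjusted p = 0.229) and −1.06 for *C3* (0.393), again 0 of 9 by limma (2 at an unadjusted p below 0.05, 0 by edgeR, 0.00560% of all genes). Of all 17852 genes, 1707 to 3988 had an unadjusted p below 0.05 in these contrasts, which do not show the effects to be alike.

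The genotype calls were all in mice without ligature, so the difference between the genotype effects of these mice was also tested, as a contrast chosen after the data were seen. It joins comparisons in which members had already been called, so its p-values are not those of a planned test. In mice without ligature, the genotype effect on the 60% HFD was lower than that on an ND for *C3*, *C2*, *C4b* and *Cfb*. By limma 4 of 9 members passed, against 21.8% of all genes, and edgeR called 3 of them, not *C2*. *C3* differed by −2.46 on the log2 scale (SE 0.59, 95% interval −3.67 to −1.25, limma adjusted p = 0.00527), *Cfb* by −1.50 (SE 0.50, 0.0316), *C2* by −1.34 (SE 0.46, 0.0391) and *C4b* by −0.99 (SE 0.30, 0.0199). Of the markers, 16 of 16 hepatocyte genes (edgeR 16) and 6 of 10 kidney tubule genes (edgeR 7) also had a lower effect by limma, and 3 of the 5 epididymis genes tested (edgeR 5) a higher one. With log2 *Alb* as a covariate, no member passed by limma, and 2 of 17852 genes did, with *C3* at −0.70, *C2* at −1.57, *C4b* at −0.29 and *Cfb* turned to 0.058 (adjusted p = 0.750, 0.361, 0.816 and 0.982, ranges over all alternatives 0.000211 to 0.750, 0.00801 to 0.485, 0.00458 to 0.816 and 0.00854 to 0.982). The fit without the 3 libraries with most epididymis RNA leaves 1 CCL19-KI mouse on a 60% HFD without ligature. It gave −1.21 for *C3*, −0.57 for *C2*, −0.82 for *C4b* and −0.68 for *Cfb*. In a fit of the 18 libraries without ligature, the estimates of these 4 were the same as in the main fit. All 4 were lost there by limma (adjusted p = 0.0535 for *C3*, 0.101 for *C2*, 0.0838 for *C4b* and 0.102 for *Cfb*). Quantile normalization left *C3* alone (limma adjusted p = 0.137 for *C2*, 0.478 for *C4b* and 0.0716 for *Cfb*).

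*C3* passed this test without each of the 12 libraries in turn, with a limma adjusted p of at most 0.0197. These fits share the choice of the contrast after the data were seen, so they show only how far the calls rest on single libraries. *C4b* was lost, with limma's adjusted p in brackets, without WT ND 2 (0.0519), CCL19-KI ND 3 (0.0614) and CCL19-KI 60% HFD 3 (0.0651). *Cfb* was lost by limma without WT ND 2 (0.110), CCL19-KI ND 1 (0.0583), CCL19-KI ND 3 (0.0705), WT 60% HFD 3 (0.0759) and CCL19-KI 60% HFD 3 (0.0952). *C2* was lost by limma without WT ND 1 (0.0899), WT ND 2 (0.0635), CCL19-KI ND 1 (0.0653), CCL19-KI ND 2 (0.0588), CCL19-KI ND 3 (0.0597), WT 60% HFD 2 (0.0827), WT 60% HFD 3 (0.0896) and CCL19-KI 60% HFD 3 (0.131). Without CCL19-KI ND 1, *C1qa* and *C1qb* passed, and without CCL19-KI 60% HFD 3, *C1qb* did. Other differences between effects in single groups were not tested.

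Each gene was then set against *Alb* from mouse to mouse. Because *Alb* fell into 2 clusters, the 30 libraries above the gap and the 6 below it were taken apart, and p-values were adjusted over the 9 members in each. Among the 30 libraries, the C1q chains were lower where *Alb* was higher, and *Cfb*, *C4b* and *C3* were higher. Differences between the groups are part of these relations and of their p-values, and the split was chosen after the data were seen. *C1qa* had r of −0.63 (permutation p = 0.000270, adjusted 0.00121) and rho of −0.71 (p = 5.00e-05, adjusted 0.000210), and r was −0.62 without the 2 farthest libraries. *C1qb* had r of −0.53 (permutation p = 0.00273, adjusted 0.00614) and rho of −0.64 (p = 0.000250, adjusted 0.000562), and r was −0.53 without the 2 farthest libraries. *C1qc* had r of −0.56 (permutation p = 0.00154, adjusted 0.00462) and rho of −0.70 (p = 7.00e-05, adjusted 0.000210), and r was −0.56 without the 2 farthest libraries. The 3 chains thus shared 1 direction, opposite to that of the next 3 genes. For *Cfb*, the values were an r of 0.62 (permutation p = 0.000230, adjusted 0.00121) and rho of 0.72 (p = 2.00e-05, adjusted 0.000180), and r was 0.64 without the 2 farthest libraries. For *C4b*, they were an r of 0.49 (permutation p = 0.00646, adjusted 0.0116) and rho of 0.44 (p = 0.0168, adjusted 0.0252), and r was 0.38 without the 2 farthest libraries. For *C3*, they were an r of 0.43 (permutation p = 0.0178, adjusted 0.0267) and rho of 0.52 (p = 0.00392, adjusted 0.00706), and r was 0.42 without the 2 farthest libraries.

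The remaining members were less tied to *Alb* in the 30 libraries. *C2* had r of −0.32 (permutation p = 0.0808, adjusted 0.104) and rho of −0.40 (p = 0.0276, adjusted 0.0355), and r was −0.32 without the 2 farthest libraries. *Serping1* and *C3ar1* did not pass by either measure (n = 30, r of −0.14 and −0.30, permutation p = 0.471 and 0.113, adjusted 0.471 and 0.127, rho of −0.14 and −0.35, p = 0.448 and 0.0617, adjusted 0.448 and 0.0694). In the 6 libraries below the gap no member passed (two-sided exact permutation test over 6 libraries, 9 relations, smallest adjusted p 0.985 for r and 1 for rho). Taken as deviations from the group means, which removes the differences between groups, *C3* had r of 0.56 (permutation p = 0.000560, adjusted 0.00504) and rho of 0.60 (p = 0.000210, adjusted 0.00189), and r was 0.49 without the 2 farthest libraries. *Cfb* had r of 0.57 (permutation p = 0.00899, adjusted 0.0405) and rho of 0.55 (p = 0.00595, adjusted 0.0268), and r was 0.42 without the 2 farthest libraries, both over 36 libraries, and the other 7 members did not pass by either measure. Among these, r was −0.13 for *C1qa*, 0.025 for *C1qb* and −0.051 for *C1qc* (permutation p adjusted 0.920, 0.921 and 0.921). Their rho was −0.26, −0.12 and −0.22 (adjusted 0.387, 0.645 and 0.387). Without the 2 farthest libraries, their r was −0.41, −0.29 and −0.35. Complement genes known from hepatocytes followed *Alb* with r closer to 1 in the 30 libraries, with r of 0.99 for *Hc* (complement C5), 0.98 for *Mbl2*, 0.97 for *C8a*, 0.96 for *C9* and 0.89 for *C4bp*, while *Clu* had 0.68 and *Cfd* −0.23. These 7 are given as a description with no p, since they were chosen after their levels were seen. The labels give no sequencing batch, so that no value within batches could be had. The plot against *Alb* shows the gap and the slopes.

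**Figure D4:**
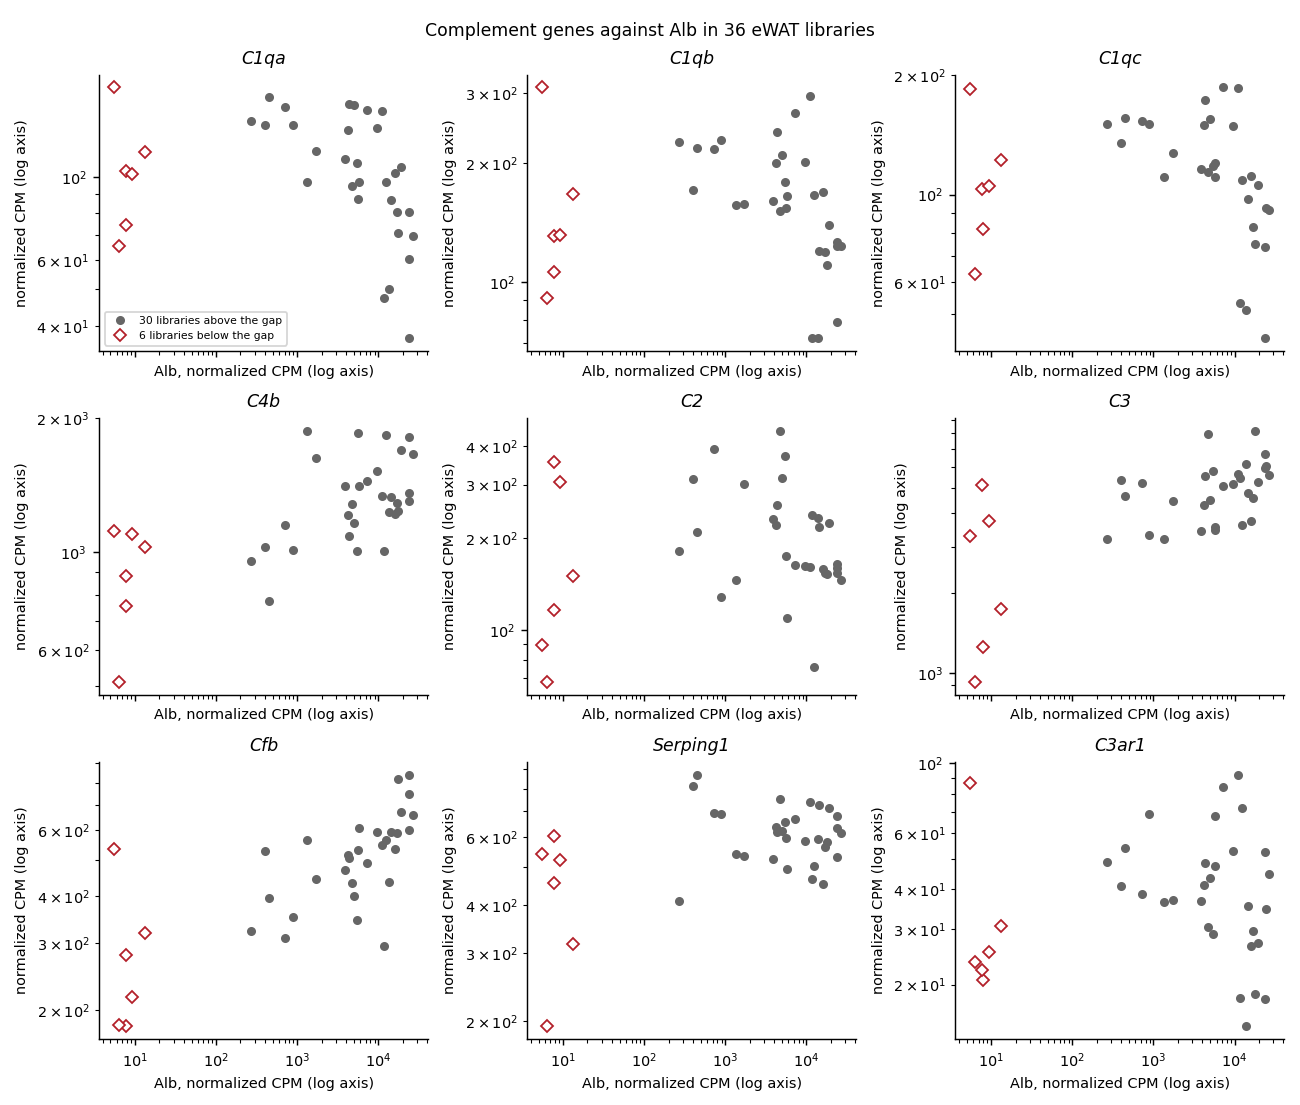
Normalized CPM of each complement gene against that of *Alb*, both on log axes, 1 point per library; filled points are the 30 libraries with *Alb* of at least 267 and open diamonds the 6 with *Alb* of at most 13.4. *Cfb* rises along *Alb* among the filled points, with an r of 0.62, and *C1qa* falls, with an r of −0.63. Differences between groups are part of both. On deviations from the group means over all 36 libraries, r was 0.57 for *Cfb* and −0.13 for *C1qa*.

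The genes were last set against summed markers of cells that adipose tissue holds, in 36 relations of 9 genes with 4 lists, each over 36 libraries. The 4 lists were chosen after the data were seen. The p-values are adjusted over these 36 relations only and are not those of a planned test. The macrophage list had 12 of 12 genes in the table, *Lyz2* as its most abundant, and *Adgre1*, its defining gene, at 0 in no library. Its sum on an ND was 3177, 1003 and 1653 in WT mice (1916, 1709.8 and 2046 when ligatured) and 2043, 812 and 884 in CCL19-KI mice (2203, 1408 and 1445 when ligatured). On the 40% HFD the sum was 1148, 1889 and 1398 in WT mice (2099, 2549 and 1632 when ligatured) and 1977, 1077 and 1485 in CCL19-KI mice (1973, 1535 and 1765 when ligatured). The 60% HFD gave sums of 2059, 1418 and 1447 in WT mice (2137, 2582 and 1637 when ligatured) and 2168, 2308 and 771 in CCL19-KI mice (1854, 2562 and 1866 when ligatured). The lowest sum belonged to replicate 3 of CCL19-KI mice on a 60% HFD and the highest to replicate 1 of WT mice on an ND, and the diets overlapped. The C1q chains and *C3ar1* followed the sum, with r of 0.94 and rho of 0.92 for *C1qb*, r of 0.91 and rho of 0.92 for *C1qc*, r of 0.84 and rho of 0.82 for *C1qa* and r of 0.86 and rho of 0.88 for *C3ar1*. All 8 permutation p-values were 1e-05, the smallest the permutations can give, adjusted to 9.00e-05 for r and 7.20e-05 for rho over the 36 relations, and without the 2 farthest libraries r was 0.94, 0.89, 0.82 and 0.87.

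*C2* followed another list, that of mesothelial cells, which line the surface of visceral fat. All 8 mesothelial genes were in the table, *Upk3b* was the most abundant, and *Msln*, the defining gene, was at 0 in no library. On an ND the mesothelial sum was 491, 582 and 574 in WT mice (1476, 1410.1 and 1247 when ligatured) and 2053, 838 and 831 in CCL19-KI mice (1057, 1437 and 959 when ligatured). The 40% HFD gave 989.9, 1326 and 1058 in WT mice (1047, 647 and 309 when ligatured) and 879, 663 and 1341 in CCL19-KI mice (529.6, 477 and 1221 when ligatured). With the 60% HFD it was 553, 879 and 978 in WT mice (709.6, 826 and 778 when ligatured) and 1398, 679 and 1043 in CCL19-KI mice (194, 775 and 357 when ligatured). WT mice on an ND without ligature lay below all other mice of that diet, as they did for *C2*. *C2* had an r of 0.70 with this sum (permutation p = 2.00e-05, adjusted 0.000144) and a rho of 0.76 (p = 1e-05, adjusted 7.20e-05), and r was 0.68 without the 2 farthest libraries. *Serping1* had an r of 0.58 (p = 9.00e-05, adjusted 0.000540) and a rho of 0.61 (p = 0.000120, adjusted 0.000720) by permutation with 10 genes of progenitors and fibroblasts, of which *Col3a1* was the most abundant, and r was 0.62 without the 2 farthest libraries. The same sum was also related to *C1qa* (r of 0.58, permutation p adjusted 0.00103), *C1qc* (0.53, 0.00360), *C2* (0.48, 0.0103) and *C1qb* (0.47, 0.0135), each passing by rho as well. *Serping1* passed by rho with the mesothelial sum (0.58, adjusted 0.00180), as did *C3* (0.42, 0.0279), and by r with the mesothelial sum *C4b* (−0.41, 0.0386) and with the macrophage sum *Serping1* (0.43, 0.0299, 0.16 without the 2 farthest libraries, on which it rests), all by permutation. Against the lipid-associated macrophage sum, which is mostly *Lpl*, *C4b* passed by rank only, with a rho of 0.54 (permutation p = 0.00105, adjusted 0.00420) and an r of 0.37 (p = 0.0272, adjusted 0.0649, 0.44 without the 2 farthest libraries), as did *C2* and *C3* with a rho of −0.44 and −0.42 (adjusted 0.0238 and 0.0279), and *C3ar1* passed by r only (0.50, adjusted 0.00660). Differences between the groups are part of these relations, and the plot against marker sums marks the diet of each library.

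**Figure D5:**
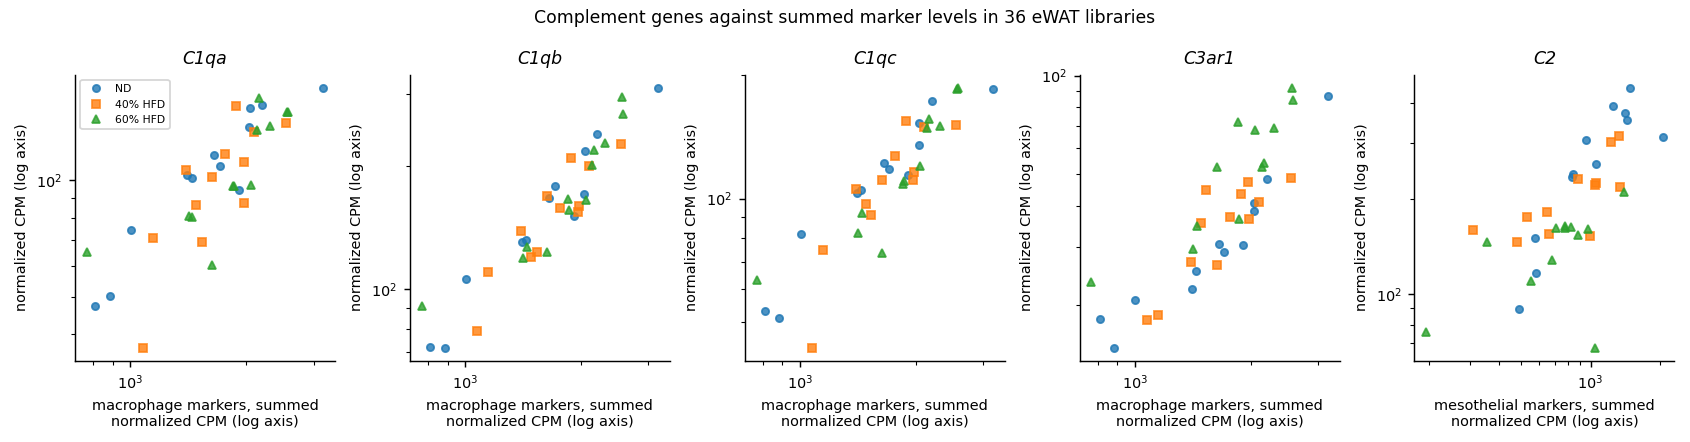
Normalized CPM of *C1qa*, *C1qb*, *C1qc* and *C3ar1* against the summed level of 12 macrophage markers, and of *C2* against that of 8 mesothelial markers, 1 point per library, by diet. *C1qb* lies closest to a line (r of 0.94), and *C2* spreads more widely (r of 0.70).

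Outside the complement lists, the genes with the most similar pattern over the 36 libraries, by Spearman's rho among all genes tested, are given for each member as a description. For the C1q chains they were *Pf4* (0.93), *Folr2* (0.92) and *Stard8* (0.88) for *C1qa*, *Fcgr3* (0.92), *Csf1r* (0.90) and *Gm36161* (0.89) for *C1qb* and *Folr2* (0.94), *Pf4* (0.93) and *Csf1r* (0.92) for *C1qc*, and for *C3ar1* they were *Cd53* (0.96), *Nckap1l* (0.96) and *Adgre1* (0.95). For *C2* they were *Wnt2b* (0.92), *Lvrn* (0.91) and *Crb2* (0.91), for *C4b* *Hyal1* (0.88), *Usp24* (0.84) and *Aox1* (0.83) and for *Cfb* *AW112010* (0.90), *Pm20d1* (0.87) and *Pter* (0.86). For *C3* they were *Plscr2* (0.88), *Proser2* (0.85) and *Pde4dip* (0.85), and for *Serping1* *Mn1* (0.79), *Star* (0.79) and *Tns3* (0.76). *Folr2*, *Csf1r* and *Adgre1* are also on the macrophage list.

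Of 40 other complement genes, 38 were in the table (*C1rb* and *Fcnb* were not) and 37 passed the filter. On the 60% HFD against an ND, 17 of the 37 passed limma's test, 15 up and 2 down, against 18.6% of all genes, and edgeR called 14. By role, these were 4 of 7 terminal pathway genes, such as *Hc* (up by 2.54, SE 0.74, limma adjusted p = 0.0197), 5 of 7 lectin pathway genes, 4 of 10 regulators, 3 of 7 receptors and 1 of 2 alternative pathway genes. *Cfd*, the gene of adipsin, fell by 2.72 (SE 0.37, limma adjusted p = 7.45e-05) and *Fcna*, a ficolin, by 0.86 (SE 0.23, 0.0107). The subunits of complement receptors *Itgax* and *Itgb2* rose by 2.14 and 0.88 (limma adjusted p = 0.000236 and 0.0101), and *Cd59a*, which blocks the membrane attack complex, by 1.13 (0.000634). On an ND, *Cfd* had 333, 2804 and 4220.1 in WT mice (10552, 8444 and 7249.6 when ligatured) and 1040.0, 3110.2 and 2288 in CCL19-KI mice (4954, 2903 and 6043 when ligatured), and on the 60% HFD 361, 751 and 485 in WT mice (1182, 473 and 272 when ligatured) and 487, 386 and 458 in CCL19-KI mice (475, 254 and 1176 when ligatured). All mice on the 60% HFD lay below the mice on an ND, other than replicate 1 of the WT and replicate 1 of the CCL19-KI mice without ligature, which overlapped with them. On the 40% HFD against an ND, 15 of 37 rose by limma and none fell, against 9.21% of all genes (edgeR 15), among them 6 of 7 terminal genes, such as *C8a* (3.28, limma adjusted p = 0.00587), and *C4a* (0.99, 0.00676). Between the high-fat diets, 3 passed limma's test, against 0.745% of all genes, and 2 passed edgeR's: *Itgax* rose by 1.38, and *Cfd* and *Fcna* fell by 1.82 and 0.95 on the 60% HFD (limma adjusted p = 0.0474, 0.0196 and 0.0409).

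Without ligature, 15 of the 37 passed for CCL19-KI against WT on an ND (14 up and 1 down, edgeR 16) and 12 passed on a 60% HFD (all down, edgeR 11), against 16.6% and 16.8% of all genes by limma, comparisons in which all 16 hepatocyte markers rose on an ND and fell on a 60% HFD by limma (16 and 7 of them by edgeR). *Hc* differed there by 6.57 and −5.19 (limma adjusted p = 0.00715 and 0.0209). Averaged over groups, limma called 0 of 37 for genotype (1 at an unadjusted p below 0.05, 0 by edgeR) and 0 for the ligature (5 at an unadjusted p below 0.05, 0 by edgeR). For the genotype effect on the 60% HFD minus that on an ND, averaged over ligature, limma called 0 (16 at an unadjusted p below 0.05), against 0.476% of all genes, and edgeR 12, against 1080 of 17852 genes and 16 of 16 hepatocyte markers, all down. In the mice without ligature alone, that difference passed limma's test for 19 of 37, 2 up and 17 down, against 21.8% of all genes, and edgeR called 17. The part of hepatocyte RNA in these changes was not tested, beyond the relations with *Alb* given above.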

How the data were processed

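RNA of eWAT from 36 mice was measured. The deposited signal values were, per the authors, CPM normalized with edgeR after Trimmomatic 0.38, Bowtie2 and RSEM 1.3.0 (the genome is named mm10 in the methods and GRCm39 in the labels). In each library 100% of the lower values were whole multiples of 1 step (tolerance 0.01), which gave reads. Values were set to log2(value + 1), genes that reached 1 in 3 or more libraries were kept (17852 of 24750), and 12 group means were fitted with limma 3.58.1 (eBayes with trend, 24 residual degrees of freedom) in R 4.3.3. Tests were two-sided, adjusted by Benjamini-Hochberg over all genes, and called below 0.05. The edgeR 4.0.16 quasi-likelihood test ran on recovered reads and called 3222 genes for the 60% HFD, 1905 for the 40% HFD and 95 for the ligature. The plan had named this test in place of limma for a table of counts. As the deposited values were scaled, limma was kept as the main test although reads could be recovered, and edgeR became an alternative. GENCODE M21 (GRCm38) gave positions. Members and lists were chosen with earlier results of these data known. Genes named are the 9 members, other complement genes called in an averaged comparison or highest or lowest in their list, the 3 genes most similar to each member, *Alb*, and the most abundant gene of each marker list, besides further markers, *Hc*, *C8a*, *C9*, *Mbl2*, *C4bp*, *Cfd* and *Clu* named after their values were seen. The motifs, the 4 lists for relations and the split at the *Alb* gap, which replaced pooled correlations, were also chosen after the data were seen. So was the difference between the genotype effects on a 60% HFD and an ND in mice without ligature. Simple diet and ligature contrasts, which had been looked at with limma, are given by exact permutation only. The limma and edgeR fits were tested on simulated reads with known changes on the 60% HFD and the same spread for all genes. Those reads held no uneven hepatocyte or epididymis RNA, so the simulation does not cover that feature of the data. Python 3.11.15, numpy 2.4.6, pandas 2.3.3, scipy 1.17.1 and matplotlib 3.10.9 were used.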

Additional observations from a re-analysis of the deposited data

Results flagged for a closer look

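In mice without ligature, the effect of genotype differed between the 60% HFD and an ND for 4 of 9 members, against 21.8% of all genes. This was limma's test of the difference itself, a contrast chosen after the data were seen. The edgeR test called 3 of the 4, not *C2*. The difference was −2.46 for *C3* (limma adjusted p = 0.00527), −1.34 for *C2* (adjusted p = 0.0391), −0.99 for *C4b* (adjusted p = 0.0199) and −1.50 for *Cfb* (adjusted p = 0.0316). None of the 4 passed with log2 *Alb* as a covariate, where limma's adjusted p ran from 0.361 to 0.982. The estimates there were −0.70 for *C3*, −1.57 for *C2*, −0.29 for *C4b* and 0.058 for *Cfb*. Without the 3 libraries with most epididymis RNA they were −1.21, −0.57, −0.82 and −0.68, with 1 CCL19-KI mouse left on a 60% HFD without ligature. Averaged over ligature, the difference passed limma's test for 0 of 9 members. The cause was not tested.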

How the results depend on the processing

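The count of members called was not 0 in 5 results, and it stayed within 1.5 times its value in 11 of 15 other settings and 13 of 24 fits without 1 library for the 60% HFD against ND, 10 of 15 other settings and 23 of 24 fits without 1 library for the 40% HFD against ND, 10 of 14 other settings and 1 of 6 fits without 1 library for the genotype on an ND, 8 of 14 other settings and 2 of 6 fits without 1 library for it on a 60% HFD and 8 of 13 other settings and 8 of 12 fits without 1 library for the difference between these genotype effects. Over 23 results of single members with an unadjusted p below 0.05, the only ones followed, 752 of 756 alternatives kept the direction. Several settings, such as another filter or a fit of fewer groups, cannot change the estimate, and many alternatives leave out only 1 library. The direction could thus hardly turn in them, and this count is no test of the results. The 4 that turned were *C4b* (−0.092) and *Cfb* (−0.022) for the 60% HFD against ND in libraries with *Alb* below the median, with an additive model, *C3* for CCL19-KI against WT on a 60% HFD (0.020) without the 3 libraries with most epididymis RNA, and *Cfb* for the difference between the genotype effects without ligature (0.058) with *Alb* as a covariate. The counts of members are given with limma's count over all genes in brackets, of 17852 unless stated. For the 60% HFD against ND, 3 members (3315) became 1 with quantile normalization (3901), 5 with sample quality weights (7846), 1 with *Alb* as a covariate (1696) and 0 in low-*Alb* libraries with an additive model (0 of 17271). For the 40% HFD against ND, 2 (1645) became 0 with quantile normalization (1910), *Alb* as a covariate (236), an additive model (191) or low-*Alb* libraries with an additive model (0 of 17271), and 1 (*C2*) in an additive model without the WT mice on an ND and not ligatured (1678 of 17534). For CCL19-KI against WT on an ND, 2 (2955) became 7 with weights (8842) and 0 with *Alb* (92), in a fit of the 18 libraries without ligature (1232 of 16923) or of the 2 groups alone (0 of 15225). On a 60% HFD, 2 (2998) became 1 with weights (4055), 1 without the 3 epididymis libraries (2637 of 17501), and 0 with quantile normalization (2834), *Alb* (45), 18 libraries (687 of 16923) or 2 groups (964 of 15262). For the difference between these genotype effects, 4 (3887) became 1 with quantile normalization (4144), 8 with weights (7811), 1 (*C1qb*) without the epididymis libraries (2855 of 17501), and 0 with *Alb* (2) or 18 libraries (1457 of 16923). Weights, which did not reach their convergence tolerance, also gave 1 in place of 0 for the 60% against the 40% HFD (355), 1 for the genotype in ligatured mice on an ND (7549), 1 and 6 for the genotype effect on the 40% and the 60% HFD minus ND (3349 and 6110), and 2 and 3 for the effects of the 60% and the 40% HFD with minus without ligature (5269 and 2523), where leaving out the epididymis libraries gave 1 for the 60% HFD (2273 of 17501). Leaving out 1 library gave 1 to 4 members for the 60% HFD, 1 to 2 for the 40% HFD, 0 to 1 between them, 0 to 5 for the genotype on an ND, 1 to 3 on a 60% HFD, 0 to 1 for the genotype effect on the 60% HFD minus ND, 1 to 4 for it without ligature, and 0 for all others. The counts over all genes moved too. For the genotype on an ND, they were 277 of 17804 without CCL19-KI ND 2, with 0 members, and 4829 of 17830 without CCL19-KI ND 1, with 5. The cause of these changes was not tested. The fits without the 3 epididymis libraries and without WT mice on an ND, and the difference between the genotype effects without ligature, were chosen after seeing the data.

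With the replicate number as a block, the counts were 3 for the 60% HFD, 2 for the 40% HFD, 2 and 2 for the genotype on an ND and a 60% HFD without ligature, 4 for the difference between these, and 0 for all others. The replicate numbers showed no pairing on average. Deviations from group means of same-numbered libraries correlated at −0.00825 on average over 198 pairs (−0.66 to 0.71), beside 0.00436 over 396 pairs of other numbers. Of 36 libraries, 16 correlated best with one of their own number. An average cannot exclude pairing between some of the groups.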
